A study of Homo sapiens with 4 samples.

Results

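Genes that mark bile duct epithelium and hepatocytes were followed on all the arrays of a study of HuCCT1, a human intrahepatic cholangiocarcinoma cell line, a tumor line of bile duct origin. The genes were taken from a list of 39 grouped by function, which was drawn up with earlier results of these data known, and 38 of them were paired with a probe (48 probes), out of 19480 genes paired with a probe on the array. GGT1, which encodes a duct membrane enzyme, had no paired probe. The study asked how miR-376c and the adaptor protein GRB2, which links the EGF receptor to downstream signaling, act on gene expression in these cells under EGF. HuCCT1 cells were transfected with 30 nM of 1 of 4 oligonucleotides, and 24 h later the medium was changed to 0.1% serum with EGF at 5 ng/ml, for another 24 h. The 4 groups were miR-376c (a synthetic mimic of the mature microRNA), miControl (its negative control oligonucleotide), siGRB2 (a small interfering RNA against GRB2) and siControl (the negative control small interfering RNA), and all of them carried EGF, so no array shows these genes without it. RNA from each group (200 ng) was labelled with Cy3 and hybridized to 1 array, so each group was 1 culture of 1 cell line after a transient transfection, and no p-value or SD between cultures could be given.

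Cholangiocytes, the epithelial cells that line the bile ducts, and hepatocytes arise from a shared progenitor of the embryonic liver. Biliary fate is associated with SOX9, SOX4 and the ONECUT factors, while HNF4A, the FOXA proteins and the GATA factors act in liver development and hepatocyte gene expression. Mature cholangiocytes modify bile with channels, exchangers and carbonic anhydrases, whereas hepatocytes secrete most plasma proteins.

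The study's methods describe the oligonucleotide of the miR-376c group as a mimic of the 3p arm, and the RefSeq entry hsa-miR-376c-3p lies at chr14:101039732-101039752 on the plus strand (GRCh38.p14). It is shown because it is the microRNA that was mimicked, with the seed (bases 2 to 8) in capitals.
hsa-miR-376c-3p: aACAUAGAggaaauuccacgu

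Levels are given as the log2 signal of a gene minus the 75th percentile of its own array, so 0 is the signal at that percentile, and levels are compared between arrays and not between genes. A probe was detected when the scanner software flagged more than 0.5 of its spots as well above background, and a difference is the level on a treated array minus the level on a control array. A difference was counted when it was at least 2-fold, which is 1 on the log2 scale. The scanner software's own error of a difference had a median of 0.20 (log2) and does not hold the variation between cultures. GRB2 itself, measured by 1 spot, was at -0.65 with siGRB2, -0.10 with siControl, 0.07 with miR-376c and 0.62 with miControl. It was lowest on the array labelled siGRB2, while with miR-376c it was below miControl and above siControl. With siGRB2 the GRB2 level was 1.47-fold below siControl, under the 2-fold limit, and 2.42-fold below miControl. With miR-376c it was 1.46-fold below miControl. The siControl array stood apart from the other 3, with an SD of log2 differences over 13599 genes of 0.50 to 0.55 against each of them and 0.30 to 0.34 among the other 3. It also had the lowest 75th percentile signal (1719, against 1995 to 2689) and the fewest detected probes (21811, against 22522 to 24119), and its part in the differences below was not tested. For this reason each treated array was set against both controls.

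Of the 38 genes, 23 were detected on all 4 arrays, 2 on some and 13 on none. All genes with a probe were detected on all 4 arrays more often (69.8% against 60.5%) and on none less often (21.6% against 34.2%), as a description of these lists. Most of the undetected genes were hepatocyte genes. Of the 10 secreted hepatocyte proteins 8 were undetected on every array, whereas the 3 duct surface markers and the 3 trefoil factors were detected on every array, as were 8 of the 11 transcription factors, 5 of 8 duct secretion genes and 2 of 3 ABC transporters. The keratins that define duct epithelium were detected on every array, and KRT7 stood at 8.09, 8.01, 8.06 and 7.65 and KRT19 at 8.32, 8.49, 8.25 and 7.98 with siGRB2, siControl, miR-376c and miControl. A wider biliary list gave 18 of 22 genes detected on all 4 arrays and 2 on none, and a wider hepatocyte list gave 8 of 40 on all 4 and 24 on none. SPP1, the gene of osteopontin and a usual duct marker, was an exception on the biliary side, being undetected on all 4 arrays. Markers of other liver cells (leukocytes, endothelium, stellate and red cells) were detected on all 4 arrays for 10 of 17 genes and on none for 4 (STAB2, LYVE1, COL1A2 and PDGFRB). The log2 of their summed signals, undetected genes included, was 1.14 with siGRB2, 0.93 with siControl, 0.78 with miR-376c and 1.02 with miControl. Every array came from a culture of the HuCCT1 line alone. These signals are therefore levels of the genes in that culture and no measure of other liver cells, and their source was not tested. In such bulk RNA, fewer cells expressing a gene and less RNA per cell cannot be told apart.

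**Figure D1:**
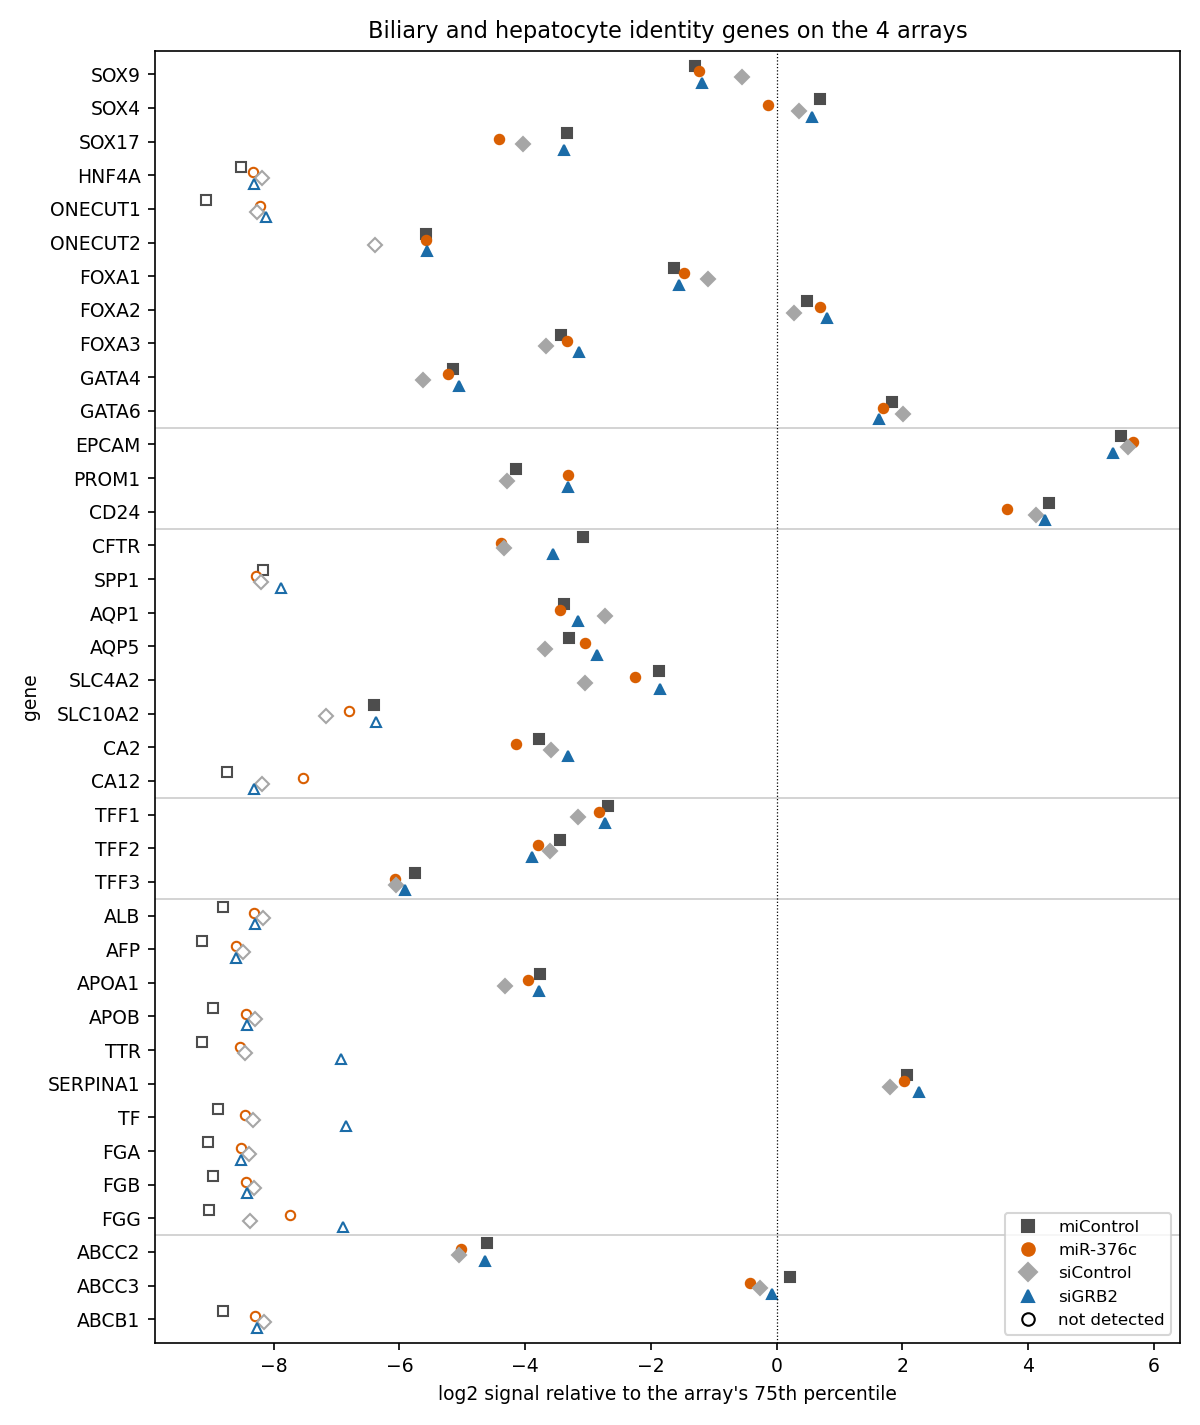
Each row is 1 of the 38 genes, grouped by role, and each symbol is its level on 1 array, as log2 signal relative to that array's 75th percentile; open symbols were not detected, and symbols are to be read along a row. Nearly the whole block of secreted hepatocyte proteins is open, with APOA1 and SERPINA1 filled on all 4 arrays.

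Among the secreted hepatocyte proteins, ALB (albumin), AFP (the fetal serum protein), APOB (the core protein of very low density lipoprotein), TTR (the thyroxine carrier), TF (transferrin) and the fibrinogen chains FGA, FGB and FGG were undetected on all 4 arrays. FGA was undetected with each of its 3 probes. For these genes no difference between the transfections could be given. The 2 exceptions were SERPINA1 and APOA1. SERPINA1, the gene of alpha-1 antitrypsin, was at 2.27 with siGRB2, 1.80 with siControl, 2.02 with miR-376c and 2.06 with miControl. The 4 values lay within 0.47 of each other, with siControl lowest. APOA1, the main protein of high density lipoprotein, was at -3.78, -4.32, -3.95 and -3.77 on the same arrays in that order. That level rests on 1 probe with 1 spot (A_33_P3298539), and the other APOA1 probe, printed in 10 spots (A_23_P203191), was undetected on all 4 arrays. The differences of SERPINA1 were 0.47 with siGRB2 against siControl and 0.20 against miControl, and those of APOA1 were 0.54 and -0.01, so neither gene came near 2-fold. The regulator HNF4A, a nuclear receptor of hepatocyte identity, was undetected as well, which rests on 1 probe with 1 spot.

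Genes detected on at least 1 array of a pair were counted, with a bound where the other array did not detect them. With miR-376c against its own control, 2 of 25 such genes were at least 2-fold apart, SOX17 and CFTR, both lower. Of all genes, 2.5% were this far apart in either direction and 1.23% were lower. With siGRB2 against siControl it was 1 of 24, SLC4A2, which was higher, when 7.97% of all genes were apart in either direction and 5.1% higher. With the controls exchanged the counts were 0 of 24 for miR-376c against siControl (5.66% of all genes) and 0 of 25 for siGRB2 against miControl (2.47%). The 2 negative controls differed from each other by at least 2-fold in 2 of 25 genes, CFTR and SLC4A2, both higher with miControl, when 6.91% of all genes did and 4.19% were higher. No gene of the list was 2-fold from both controls in one direction, neither of 24 with miR-376c (0.897% of all genes) nor of 24 with siGRB2 (1.04%). Over the 23 genes detected on all arrays, the median difference with miR-376c was -0.15 against miControl and -0.01 against siControl, beside -0.02 and 0.06 over all genes. With siGRB2 it was 0.40 against siControl and -0.01 against miControl, beside 0.11 and 0.03 over all genes. The shift with siGRB2 was seen against siControl alone, and the median difference between miControl and siControl was itself 0.27 over these genes.

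**Figure D2:**
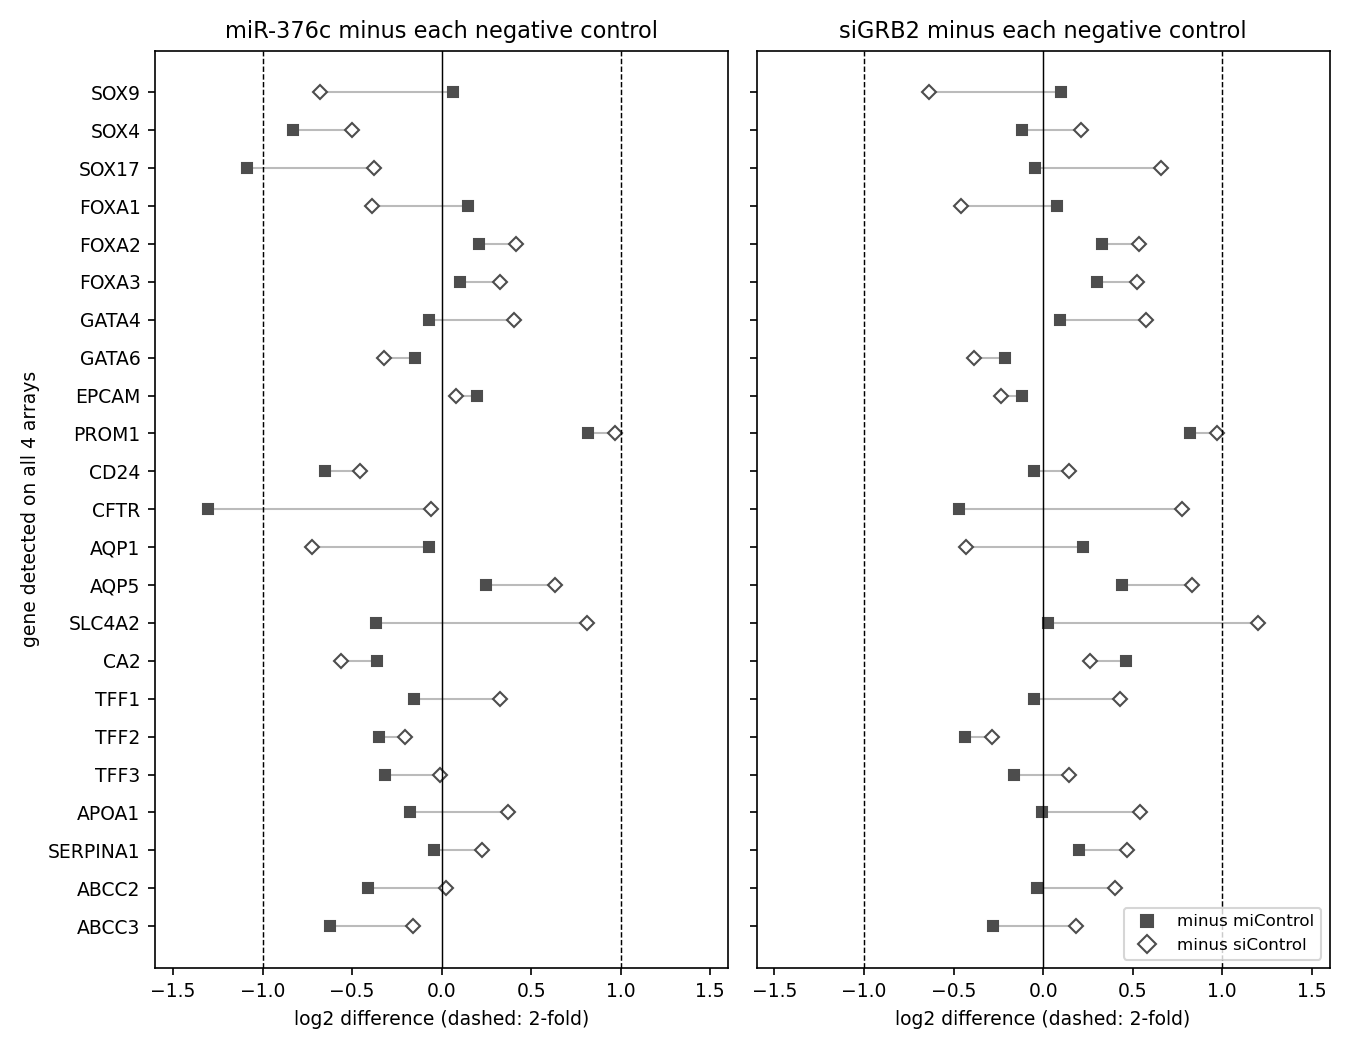
Log2 differences of the 23 genes detected on all 4 arrays, for miR-376c (left) and siGRB2 (right), as the treated array minus miControl (filled squares) and minus siControl (open diamonds); dashed lines mark 2-fold. For CFTR, SOX17 and SLC4A2 the position depends on the control, while PROM1 lies between 0.82 and 0.97 in all 4 differences.

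PROM1 was the gene of the list that stood furthest above both controls on both treated arrays. It encodes prominin-1 (CD133), a membrane protein of apical protrusions used as a marker of progenitor and tumor-initiating cells. PROM1 was at -3.32 with siGRB2, -4.29 with siControl, -3.33 with miR-376c and -4.14 with miControl. Both treated arrays were higher than both controls. The difference was 0.82 (1.76-fold) with miR-376c against miControl and 0.97 (1.96-fold) with siGRB2 against siControl. Against the other control it was 0.97 and 0.82 in the same order, with a scanner error of 0.22 to 0.23 on each. In 6 of 23 genes of the list both treated arrays lay on one side of both controls, as in 33.8% of all genes. They were PROM1, AQP5, FOXA2 and FOXA3, which were higher (20.1% of all genes), and GATA6 and TFF2, which were lower (13.6%). Among them PROM1 had a gap between the treated and the control arrays of 0.82, and only 3 of 13599 genes, PROM1 included, had as large a gap on that side. The other 5 had gaps of 0.25 (AQP5), 0.21 (FOXA2), 0.20 (TFF2), 0.15 (GATA6) and 0.10 (FOXA3), all near or under the scanner error. PROM1 rests on 1 probe with 1 spot, whose signal was 199.6, 87.7, 206.0 and 152.2 with siGRB2, siControl, miR-376c and miControl, far above the lowest detected signals of 21.2 to 24.4. At a 1.5-fold limit PROM1 was the single gene of the list past both controls, 1 of 24 with miR-376c (3.29% of all genes) and 1 of 24 with siGRB2 (3.25%). These counts are near the shares over all genes. Its gap was 0.44 with normexp background correction, the lowest of 7 alternatives, and its rank among all genes is given for the main scaling alone.

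**Figure D3:**
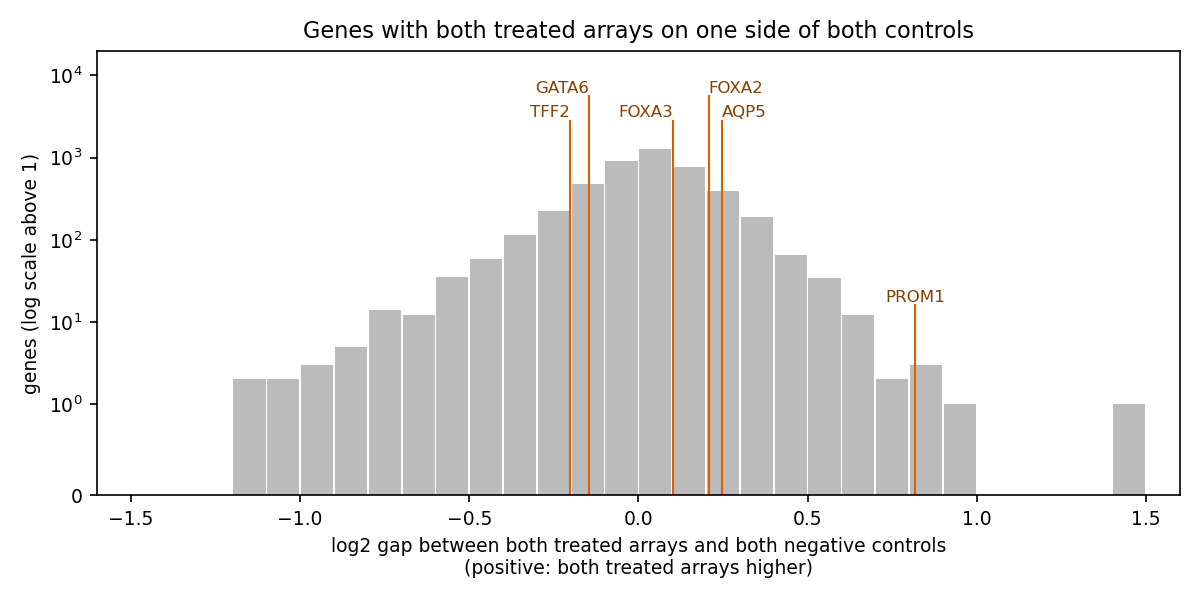
Histogram of the 4592 genes with both treated arrays on one side of both negative controls; the x axis is the log2 gap between the nearer treated and control arrays, positive where the treated arrays were higher, and the y axis is the number of genes on a log scale. Orange lines mark the 6 listed genes, of which PROM1 lies far out at 0.82 and the others between -0.20 and 0.25.

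The other duct surface markers followed other patterns. EPCAM, the epithelial cell adhesion molecule of duct cells, was at 5.35 with siGRB2, 5.59 with siControl, 5.67 with miR-376c and 5.47 with miControl, a range of 0.32 that is the narrowest of the 23 genes. CD24, a glycosylated surface protein of progenitor and tumor cells, was at 4.27, 4.12, 3.67 and 4.32 on the same arrays. It was lowest with miR-376c, by -0.65 against miControl and -0.46 against siControl, and with siGRB2 it lay between the controls.

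CFTR, the chloride channel of the cholangiocyte apical membrane, had the widest range of the list, 1.31. Its probe is printed in 10 spots, which gave -3.55 ± 0.039 with siGRB2 (SD, n = 9 spots), -4.33 ± 0.068 with siControl (n = 10 spots), -4.39 ± 0.056 with miR-376c (n = 10 spots) and -3.08 ± 0.11 with miControl (n = 10 spots). The spots of an array are repeats of 1 hybridization and not cultures. Between arrays, miR-376c and siControl lay together at the low end, with siGRB2 above them and miControl highest. The difference was -1.31 (2.47-fold lower) with miR-376c against miControl and -0.06 against siControl. With siGRB2 it was 0.78 against siControl and -0.47 against miControl, so the sign turned with the control. The difference between the controls was 1.25.

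The other duct transport genes had smaller ranges. SLC4A2, the chloride-bicarbonate exchanger that works beside CFTR, was at -1.85 with siGRB2, -3.06 with siControl, -2.25 with miR-376c and -1.88 with miControl. It was low on siControl alone, and siGRB2 was 2.30-fold above siControl (1.20) but within 0.03 of miControl. AQP5, a water channel of secretory epithelia, was at -2.85, -3.68, -3.05 and -3.30 in the same order. Both treated arrays were the higher ones, by 0.25 to 0.83. AQP1, the water channel of cholangiocytes, was at -3.16, -2.73, -3.45 and -3.38 on the same arrays. This level is uncertain, since its pair of probes disagreed: for miR-376c against siControl they gave -1.19 (A_23_P372834) and -0.25 (A_33_P3253723). CA2, a carbonic anhydrase that supplies bicarbonate, was at -3.32, -3.58, -4.15 and -3.79, lowest with miR-376c. SLC10A2, the apical bile acid transporter, was detected on miControl alone (-6.40), which left no fold to give, and CA12, another carbonic anhydrase, was undetected on all 4 arrays.

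**Figure D4:**
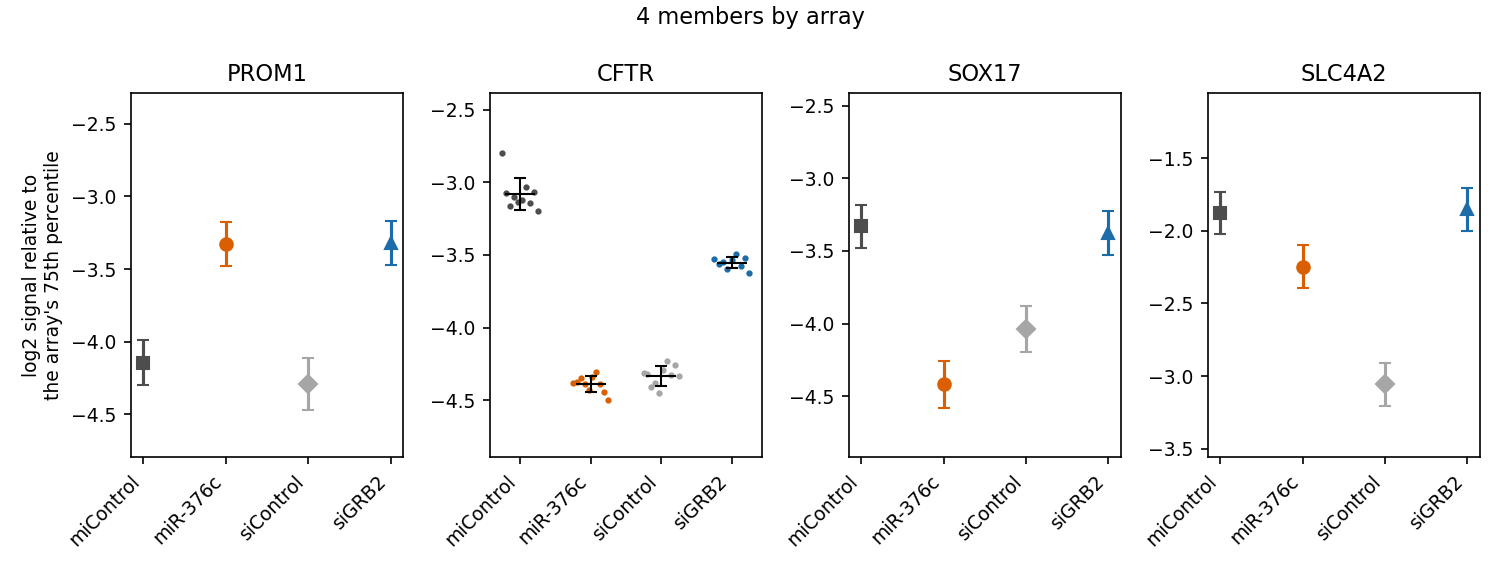
Levels of PROM1, CFTR, SOX17 and SLC4A2 on the 4 arrays, as log2 signal relative to the 75th percentile; bars are the scanner error for single-spot probes, and for CFTR dots are spots, with the mean and the SD between 9 or 10 spots. PROM1 pairs the 2 treated arrays at about -3.32 and -3.33, CFTR pairs miR-376c with siControl, and SLC4A2 is low on siControl alone; all panels span the same height on the log2 scale.

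Among the transcription factors, the SOX genes differed from one another. SOX9, the factor of duct and progenitor cells, was at -1.19 with siGRB2, -0.55 with siControl, -1.23 with miR-376c and -1.29 with miControl. The siControl array alone was higher, and the other arrays lay within 0.10 of each other. SOX4, which acts with SOX9 in duct formation, was at 0.57, 0.35, -0.15 and 0.68. It was lowest with miR-376c, at -0.83 against miControl and -0.50 against siControl. SOX17, a factor of early endoderm and of the biliary tree, was at -3.38, -4.04, -4.42 and -3.33. It was 2.12-fold lower with miR-376c than with miControl (-1.09) and -0.38 against siControl, and with siGRB2 it was 0.66 against siControl and -0.05 against miControl. The value of SOX17 with miR-376c was under both controls, and by more than 2-fold under miControl alone.

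None of the measured differences of the ONECUT, FOXA and GATA factors from a control reached 2-fold. ONECUT2, a factor of hepatic and biliary development, was detected with siGRB2 (-5.55), miR-376c (-5.58) and miControl (-5.57) and not with siControl. The 3 measured levels lay within 0.03 of each other, and against siControl they were at least 1.70-fold (siGRB2), 1.67-fold (miR-376c) and 1.68-fold (miControl) higher. Its relative ONECUT1 was undetected on all 4 arrays. FOXA1, a pioneer factor of liver development measured by 10 spots per array, was at -1.55, -1.09, -1.48 and -1.63 in the order siGRB2, siControl, miR-376c and miControl. As for SOX9, siControl alone was higher. FOXA2, its close relative in endoderm, was at 0.80, 0.27, 0.68 and 0.47, and FOXA3, the next of these factors, was at -3.14, -3.66, -3.34 and -3.44. In both genes the treated arrays were above both controls, by 0.21 to 0.54 in FOXA2 and by 0.10 to 0.53 in FOXA3. GATA6, a factor of endoderm and bile duct development, was at 1.62, 2.01, 1.69 and 1.83 and lay lower on both treated arrays, by -0.15 to -0.39.

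GATA4, a factor of early liver and heart development, had probes that disagreed. Its level, the mean of 2 probes detected on all arrays, was -5.05 with siGRB2, -5.62 with siControl, -5.22 with miR-376c and -5.15 with miControl. The differences were -0.07 with miR-376c against miControl and 0.57 with siGRB2 against siControl, both under 2-fold. The remaining GATA4 probe (A_33_P3293456) was detected on miControl alone. A further probe, A_33_P3406962, was not paired with GATA4 through the RefSeq accessions and is named GATA4 in the study's own supplementary list. The study's gene lists hold genes changed at least 2-fold with both treatments in these same data. This probe was taken from there, so its differences with both treatments are not an independent result. It was at -3.10 with siGRB2, -5.44 with miR-376c and -6.58 with miControl and was undetected with siControl. With miR-376c its difference was 1.14 (2.21-fold) against miControl, with a scanner error of 0.35, and with siGRB2 it was at least 9.33-fold above siControl and 3.48 (11.2-fold) above miControl. This probe, a single spot with signals of 233.1 (siGRB2), 47.7 (miR-376c), 28.1 (miControl) and 9.87 (siControl), differed by more than 2-fold where the GATA4 mean did not. Which transcript it measures was not tested.

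**Figure D5:**
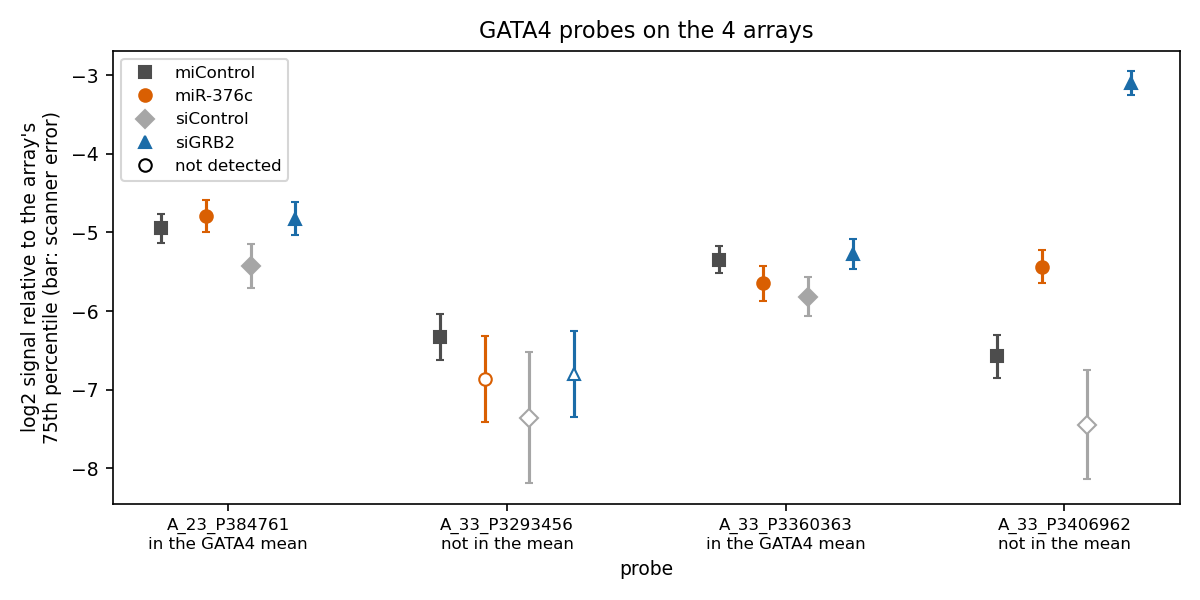
Levels of the 3 probes paired with GATA4 by accession and of A_33_P3406962, which only the study's list names GATA4, on the 4 arrays, as log2 signal relative to the 75th percentile; bars are the scanner error and open symbols were not detected. A_33_P3406962 reaches -3.10 with siGRB2, while the probes in the GATA4 mean stay between -5.82 and -4.79.

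The trefoil factors, small peptides secreted with mucus, were detected on all 4 arrays. TFF1 was at -2.73 with siGRB2, -3.15 with siControl, -2.83 with miR-376c and -2.67 with miControl. TFF2 was at -3.89, -3.60, -3.80 and -3.45 in the same order, with both treated arrays under both controls by -0.20 to -0.44. TFF3, for which 1 of 3 probes was detected, was at -5.92, -6.06, -6.07 and -5.75. All 3 genes were highest on miControl, as were 10 of the 23 genes detected on all arrays, beside 2926 of 13599 over all genes.

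The ABC transporters move conjugates and drugs out of the cell. ABCC2, the canalicular pump of hepatocytes, was at -4.64 with siGRB2, -5.05 with siControl, -5.02 with miR-376c and -4.61 with miControl. The arrays fell into 2 close pairs, miR-376c with siControl and siGRB2 with miControl, the former lower. ABCC3, the basolateral pump of cholangiocytes and hepatocytes, was at -0.08, -0.26, -0.42 and 0.20, and both of its probes gave the same order of arrays. It was lowest with miR-376c, by -0.62 against miControl and -0.16 against siControl. ABCB1, the multidrug pump P-glycoprotein, was undetected with both of its probes.

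Over the 23 genes, the range across the 4 arrays had a median of 0.57, beside 0.53 over all genes, and without siControl it was 0.33 beside 0.29. A range of at least 2-fold was reached by 3 genes (13.0%, beside 11.5% of all genes), and without siControl by 2 genes (8.70%, beside 2.12%). The siControl array held the highest or lowest level of 60.9% of these genes and of 74.4% of all genes. At 1.5-fold, miR-376c against miControl separated 6 of 25 genes (9.7% of all genes). SOX4, SOX17, CD24, CFTR and ABCC3 were lower (5.91% of all genes), and PROM1 was higher (3.78%). siGRB2 against siControl separated 7 of 24 (30.1%). Of these SOX9 was lower (11.2% of all genes), and SOX17, ONECUT2, PROM1, CFTR, AQP5 and SLC4A2 were higher (18.9%).

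Beyond the 39 genes, 2 of the 9 genes of the wider hepatocyte list that could be set against both controls were at least 2-fold from both with miR-376c, when 0.897% of all genes were. They encode the 2 subunits of the asialoglycoprotein receptor, which takes up desialylated plasma proteins. ASGR1 was at -3.68 with siGRB2, -2.46 with siControl, -4.07 with miR-376c and -2.99 with miControl, and with miR-376c it was 2.12-fold below miControl and 3.05-fold below siControl. ASGR2 was at -5.46, -6.02, -3.97 and -5.77, and with miR-376c it was 3.50-fold above miControl and 4.15-fold above siControl. The ASGR2 level with siControl lay near the lowest detected level of that array (-6.32), so the fold against siControl is uncertain. The subunits lay at opposite ends on the same array, ASGR1 lowest and ASGR2 highest. Each was measured by 1 probe. The difference of ASGR1 with miR-376c against miControl was -1.08, just past the limit. No values under the alternative scalings are given for ASGR1 and ASGR2. SOX17, at -1.09 in that comparison, stayed past 2-fold in 4 of 7 alternatives. Of the wider biliary list, 0 of 20 genes were 2-fold from both controls with miR-376c and 0 of 20 with siGRB2 (1.04% of all genes).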

How the data were processed

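Gene expression was measured on 4 single-color Agilent arrays, 1 for each transfection, all on 1 slide and in 1 scan, and nothing in the sample labels or study methods describes more than 1 culture per group. The authors deposited the spot intensity values of Agilent Feature Extraction (version 10.7) with quality flags, and a table of log2 values per probe that the authors made by a shift to the 75th percentile. Apart from 1 constant per array, each column of that table equalled the scanner values within 0.01 for 99.45% to 99.54% of the 34127 probes. Its log2 scale was thereby known, but not its centring, since the constant was removed before the check. The median difference over all genes for siGRB2 against siControl was 0.035 with the deposited values and 0.11 with the scaling used here.

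Processed intensities were converted to log2 and the 75th percentile over 43118 non-control spots was subtracted. Spots flagged as outliers (289 to 329 an array) were dropped, spots of a probe were averaged, and a gene took the mean of its probes detected on all 4 arrays, or else the probe detected on most. A gene undetected on 1 array of a comparison has a bound, for which the dim side takes its own level or the lowest detected level there, whichever is higher. No spot was saturated. The 75th percentile signals were 1719 to 2689 and precision is limited by the number of arrays. The scanner accession named a gene for 25419 of 34127 probes through RefSeq annotation (GRCh38.p14). The scanner files name another build, so this was used for names and for the sequence printed. Some genes of the wider lists are counted and not reported here.

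No test was possible with 1 array per group, so differences were set beside the same measure over all genes. The members and lists were chosen with earlier results of these data known. The rule for named genes was every listed gene detected on at least 1 array, with the undetected ones only named, and from the wider lists KRT7, KRT19, GRB2 as the target, and genes at least 2-fold from both controls with 1 treatment. The calculation was tested on simulated data. Python (3.11.15), numpy (2.4.6), pandas (2.3.3), matplotlib (3.10.9), R (4.3.3) and limma (3.58.1) were used. Alternatives tried were quantile normalization, a median shift, a 75th percentile taken over detected probes, normexp (offset 50, on median intensities), the deposited log2 values, outlier spots kept, another detection rule, no bounds, the brightest probe, other fold limits and the other or both controls.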

Additional observations from a re-analysis of the deposited data

Results flagged for a closer look

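SOX17, CFTR and SLC4A2 differed in opposite directions under the 2 treatments, each against its own control. The log2 difference was -1.09 with miR-376c and 0.66 with siGRB2 for SOX17, -1.31 and 0.78 for CFTR, and -0.37 and 1.20 for SLC4A2. The difference between the treatments was not tested, since each group is 1 array. Against miControl siGRB2 gave -0.05, -0.47 and 0.03, and against siControl miR-376c gave -0.38, -0.06 and 0.81. SLC4A2 was thus higher than siControl with both treatments.

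The probe A_33_P3406962, outside the probes paired with GATA4 by accession, gave signal above the controls on both treated arrays. It was taken from the study's list of genes changed with both treatments in these same data, so a change with both was given in advance. Its log2 difference was 1.14 with miR-376c against miControl and at least 3.22 with siGRB2 against siControl, where it was undetected.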

How the results depend on the processing

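The number of genes detected on all 4 arrays was 23 under each detection rule tried. The counts of listed genes at least 2-fold apart rested on few genes. For miR-376c against miControl the count of 2 became 1 with quantile normalization or a median shift, 0 with normexp, 6 at a 1.5-fold limit, 0 at a 3-fold limit, and 0 with the other control or the mean of both. For siGRB2 against siControl the count of 1 became 0 with quantile normalization, a median shift or normexp, 2 with the percentile over detected probes, 7 at 1.5-fold, 0 at 3-fold, and 0 with the other control or the mean of both. Between the controls the count of 2 became 0 with quantile normalization or normexp, 1 with a median shift, 6 at 1.5-fold and 0 at 3-fold. Against both controls the count of 0 became 1 (PROM1) for miR-376c and 1 (PROM1) for siGRB2 at 1.5-fold. The median difference of siGRB2 against siControl (0.40) became 0.12 with a median shift and 0.14 with normexp. It became -0.0086 with the other control and 0.19 with the mean of both. A median shift subtracts 1 constant per array, so it moved all genes of that comparison alike, and their median went from 0.11 to -0.17. The cause of the other changes was not tested. Of 49 differences of single genes, 9 changed sign with a median shift, 5 with quantile normalization and 3 with normexp, and none of these was past 2-fold. CFTR stayed past 2-fold with miR-376c against miControl in 6 of 7 alternatives (-1.32 to -0.82), SOX17 in 4 of 7 (-1.10 to -0.62) and SLC4A2 with siGRB2 against siControl in 4 of 7 (0.84 to 1.23). The gap of PROM1, chosen for this check after seeing the data, was 0.44 to 0.82 over 7 alternatives, and those of AQP5, FOXA2, FOXA3, GATA6 and TFF2 kept their direction in all 7. No paired analysis was possible because each group holds 1 array and the columns carry 1 replicate number. Genes near background, such as TFF3 and GATA4, have a larger scanner error than bright ones.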
